A study of Mus musculus with 20 samples.

Results

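A set of 9 genes of deoxynucleotide metabolism was followed through bone marrow and kidney of mice given oxaliplatin, a platinum drug that crosslinks DNA. They were taken by gene symbol from the count tables of both tissues: Rrm1, Rrm2, Rrm2b, Tyms, Dut, Dctd, Tk1, Dck and Samhd1, that is 9 of the 55486 genes listed. All 9 had enough reads to be tested in both tissues. In marrow Rrm1, Rrm2, Tyms, Tk1 and Dck fell after oxaliplatin and none of the 9 rose. In kidney Rrm2 and Rrm1 rose from low levels and Rrm2b fell.

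The mice were C57BL/6, 10 weeks old at the start, and the labels name no transgene or targeted allele. Treated mice received 10 mg/kg oxaliplatin in 5% dextrose by intraperitoneal injection over 8 weeks, and control mice received 5% dextrose alone, called vehicle here. Each of the 4 groups (vehicle marrow, oxaliplatin marrow, vehicle kidney, oxaliplatin kidney) held 5 libraries, 1 mouse each, 20 libraries in all. Marrow came from the leg bones (tibia, femur) of mice killed 6 days after their final dose, so the values describe whole marrow after repeated dosing, not sorted cells. How kidneys were collected is not given in the sources used here. Counted reads per library ran from 31062858 to 39293176 in vehicle marrow, 30660153 to 41140527 in oxaliplatin marrow, 24393007 to 28304953 in vehicle kidney and 26314983 to 30925430 in oxaliplatin kidney. The labelled tissues carried their defining markers: the neutrophil granule gene Ngp averaged 5799 CPM (counts per 1000000 counted reads) in vehicle marrow, and the proximal tubule phosphate transporter Slc34a1 averaged 8524 CPM in vehicle kidney against 0.379 CPM in vehicle marrow.

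Cells make deoxynucleotides mainly by reducing ribonucleotides. Ribonucleotide reductase pairs a large catalytic subunit, Rrm1, with a small radical-bearing subunit, which is Rrm2 in cells copying their DNA or Rrm2b, a p53-inducible form known for supplying DNA repair and mitochondria outside S phase. Dctd and Dut feed dUMP to Tyms, which methylates it to dTMP; Tk1 and Dck rescue thymidine and deoxycytidine from outside the cell, and Samhd1 breaks deoxynucleoside triphosphates down again. Rrm2, Tyms and Tk1 are textbook S-phase genes, and dividing precursors of red and white cells make marrow rich in them, whereas most cells of the adult kidney are not dividing.

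The reductase genes lie on 3 chromosomes of the mouse genome (GRCm38): Rrm1 at chr7:102441695-102469771 on the plus strand, Rrm2 at chr12:24708241-24714146 on the plus strand and Rrm2b at chr15:37923952-37961318 on the minus strand. Of the others, Tyms lies at chr5:30058202-30073617, Dck at chr5:88764996-88783281, Dut at chr2:125247190-125258608, Samhd1 at chr2:157097533-157135265, Dctd at chr8:48099092-48153233 and Tk1 at chr11:117815526-117826092. All 9 are protein-coding. Exons of Tk1 overlap the antisense gene Afmid and exons of Rrm2b overlap the antisense gene Gm49085. Whether counting used the strand is not given in the sources used here, so reads in the overlapping exons cannot be assigned to 1 gene of a pair with certainty.

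The promoters of Rrm1 and Rrm2 are shown because the subunits they encode work as 1 enzyme and changed in the same direction in each tissue, though by different amounts. The RefSeq tables (GRCm38.p6) held a promoter for 8 of the 9 genes, Rrm2b being the exception. The 250 bases before the RefSeq start are printed 5′ to 3′ on the coding strand, chr7:102441445-102441694 for Rrm1 and chr12:24708004-24708253 for Rrm2, with capitals marking matches on either strand to CCAAT and to an E2F word (TTNNCGC with CC, GG, CG or GC in place of NN).
Rrm1: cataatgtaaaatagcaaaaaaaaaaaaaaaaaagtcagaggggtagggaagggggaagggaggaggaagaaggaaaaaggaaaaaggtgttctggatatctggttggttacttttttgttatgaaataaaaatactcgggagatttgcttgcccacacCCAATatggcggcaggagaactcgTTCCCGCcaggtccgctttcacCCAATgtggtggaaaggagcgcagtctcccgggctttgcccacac
Rrm2: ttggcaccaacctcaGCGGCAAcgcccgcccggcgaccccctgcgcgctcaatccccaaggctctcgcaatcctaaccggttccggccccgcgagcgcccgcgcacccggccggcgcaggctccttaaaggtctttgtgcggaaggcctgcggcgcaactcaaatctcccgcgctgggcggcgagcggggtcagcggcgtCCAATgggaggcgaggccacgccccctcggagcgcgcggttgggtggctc
Rrm1 held TTCCCGC at -67 and 2 CCAAT words, and Rrm2 held the reverse of TTGCCGC at -235 and CCAAT at -50, positions counting back from the start. Over all 32851 promoter windows an E2F word was found in 9.57% and CCAAT in 37.4%; the reverse of TTGGCGC can share 4 letters with CCAAT, which did not happen in these 2 windows. The cell cycle word TTTGAA, in 17.9% of windows, was found among the 9 genes at -245 in Dck only. Tyms, Dut, Tk1 and Samhd1 held none of these words in their windows, and 2 of the 3 Dctd windows held CCAAT. The 250 bases before the RefSeq start lay inside the gene span given above for Dut, and partly inside it for Tk1 and Samhd1. For these genes the lack of a word describes the window only. A match describes the letters and is not a measured binding site.

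Before drug effects, the 2 tissues differed in how much of each gene they held. In vehicle-treated mice the mean level in marrow was 192 times that in kidney for Rrm2, 46.6 times for Dck and 41.5 times for Rrm1. The ratio was 14.8 for Samhd1, 12.4 for Tk1, 8.72 for Tyms, 6.61 for Dut and 4.27 for Dctd. Rrm2b was the exception, with 20.4 CPM in marrow and 21.8 CPM in kidney, a ratio of 0.937. These ratios compare tables that were scaled separately and carry no test.

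Per kilobase of the principal transcript, the scale on which genes can be set beside each other, Rrm2 led in vehicle marrow at 237 ± 27.2 CPM per kb (SD, n = 5). Tk1 (119), Rrm1 (113) and Samhd1 (89.9) followed with neighbouring ranges that overlapped. Dut (50.5) and Dck (43.8) also overlapped, and Tyms (27.2), Rrm2b (4.48) and Dctd (2.47) stood apart in that order. Kidney had another order: Tk1 at 9.60 CPM per kb, Dut at 7.63, Samhd1 at 6.09 and Rrm2b at 4.78 were separate from their neighbours, Tyms at 3.13 and Rrm1 at 2.73 overlapped, Rrm2 at 1.24 and Dck at 0.941 overlapped, and Dctd was lowest at 0.579. On this scale the small subunit mRNA was mostly Rrm2 in vehicle marrow and mostly Rrm2b in vehicle kidney. The order rests on the length used: divided by the union of all annotated exons, Tk1 ranked 6 in vehicle marrow and 2 in vehicle kidney, and Dut ranked 3 and 1.

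Oxaliplatin marrow was not uniform, and mouse 3 stood apart. The summed level of 24 S-phase genes was 3408 CPM in mouse 3 and 1530 to 2392 CPM in the other 4 oxaliplatin mice. Early erythroid markers summed to 3721 CPM in mouse 3 against 1697 to 2436 CPM in the others, and macrophage markers to 1791 CPM against 2739 to 3848 CPM. Neutrophil lineage markers summed to 11394 CPM in mouse 3 and 13347 CPM in mouse 4, against 24881 to 31314 CPM in the other 3. Values without mouse 3 are given where they change a call of one of the 9 genes or a list count.

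**Figure D1:**
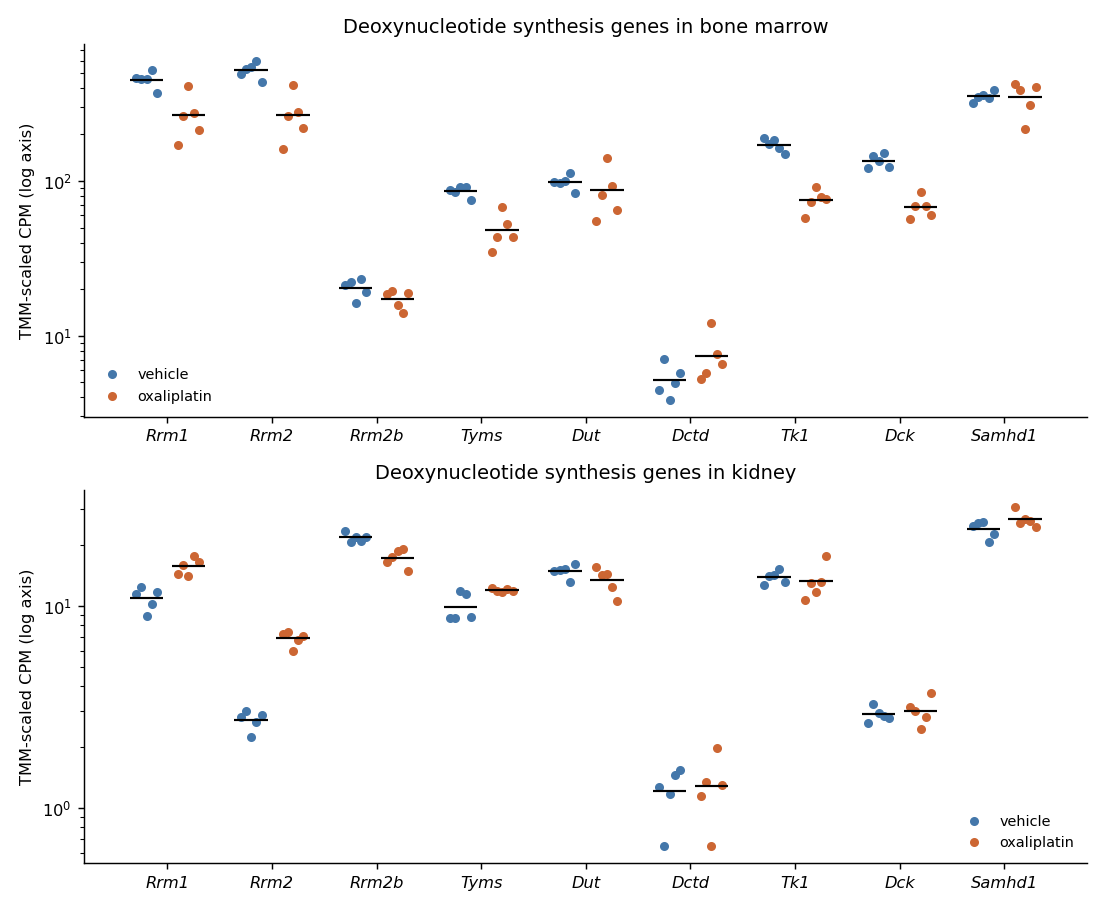
Level of each gene in each library (TMM-scaled CPM, log axis) in bone marrow (upper panel) and kidney (lower panel); points are mice and lines are group means. Rrm2, Tyms, Tk1 and Dck separate the treatments in marrow with oxaliplatin below vehicle, and Rrm1 and Rrm2 separate them in kidney with oxaliplatin above vehicle.

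Rrm2, the S-phase small subunit, stood at 495, 529.8, 543, 598 and 437 CPM in vehicle marrow and at 162, 261, 418, 281 and 219 CPM in oxaliplatin marrow (mice 1 to 5 of each group). Every treated mouse lay below every control, with mouse 3 nearest to the controls. The mean fell from 521 ± 59.7 to 268 ± 95.3 CPM (SD, n = 5), with a log2 fold change of -0.96 (SE 0.20, adjusted p = 0.00274). Fold changes, standard errors and adjusted p-values are from edgeR's quasi-likelihood test over all genes of a tissue with Benjamini-Hochberg adjustment, a gene passed at an adjusted p under 0.05, and levels are TMM-scaled, that is, scaled so that most genes keep their level between libraries.

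Rrm1, the large subunit, measured 462, 454, 456, 521 and 371 CPM in vehicle marrow against 171, 261, 414, 276 and 212 CPM in oxaliplatin marrow. Only mouse 3 reached into the vehicle range. The mean went from 452 ± 53.5 to 267 ± 91.9 CPM, with a log2 fold change of -0.76 (SE 0.20, adjusted p = 0.00892), and -0.98 without mouse 3 (adjusted p = 9.1e-05). Rrm2b gave 21.4, 22.1, 16.3, 23.1 and 19.2 CPM in vehicle marrow and 18.6, 19.3, 15.8, 13.9 and 18.9 CPM in oxaliplatin marrow. The groups overlapped, the log2 fold change was -0.24 (SE 0.13), and the adjusted p was 0.182. The antisense gene Gm49085 at the Rrm2b locus went from 4.04 ± 0.62 to 1.65 ± 0.39 CPM in marrow, and its part in the Rrm2b value was not tested.

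Among the genes of the thymidylate route, only Tyms passed in marrow. Tyms, the thymidylate synthase, measured 87.7, 84.5, 92.0, 91.3 and 75.3 CPM with vehicle and 34.9, 43.3, 67.8, 52.8 and 43.7 CPM with oxaliplatin. The groups did not overlap, and the log2 fold change was -0.83 (SE 0.15, adjusted p = 8.6e-04). Reads of the pseudogene Tyms-ps averaged 0.695 CPM with vehicle and 0.493 CPM with oxaliplatin. Dut, which makes dUMP from dUTP and so keeps uracil out of DNA, ranged from 83.9 to 113 CPM (median 98.2) with vehicle and from 54.7 to 142 CPM (median 81.2) with oxaliplatin. Mouse 3 had the highest Dut of all 10 marrow libraries, the log2 fold change was -0.17 (SE 0.21, adjusted p = 0.572), and without that mouse it was -0.42 (adjusted p = 0.0311). Dctd, the dCMP deaminase, ranged from 3.84 to 7.04 CPM (median 4.90) with vehicle and from 5.27 to 12.0 CPM (median 6.52) with oxaliplatin, a log2 fold change of 0.52 (SE 0.24, adjusted p = 0.118), with mouse 3 again the highest and a value of 0.28 without it (adjusted p = 0.302).

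Both salvage kinases fell by more in relation to their error. Tk1, the cytosolic thymidine kinase, stood at 189, 173, 184, 163 and 149 CPM in vehicle marrow and at 58.0, 72.6, 91.1, 78.6 and 76.9 CPM in oxaliplatin marrow. The lowest vehicle mouse lay well above the highest treated mouse, and the log2 fold change was -1.19 (SE 0.12, adjusted p = 7.8e-06). Dck, the deoxycytidine kinase that also activates nucleoside drugs, measured 122, 144, 134, 152 and 123 CPM with vehicle and 57.0, 68.6, 84.7, 68.4 and 60.7 CPM with oxaliplatin. Here too the groups were apart, at a log2 fold change of -0.99 (SE 0.11, adjusted p = 2.5e-05). Afmid, antisense to Tk1, averaged 14.6 CPM with vehicle and 3.87 CPM with oxaliplatin in marrow (log2 fold change -1.92, adjusted p = 4.6e-07), and its part in the Tk1 value was not tested.

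Samhd1, the dNTP triphosphohydrolase, ranged from 322 to 387 CPM (median 349) in vehicle marrow and from 217 to 421 CPM (median 389) in oxaliplatin marrow. The 3 highest of these libraries were treated mice, and the lowest was oxaliplatin mouse 3. The log2 fold change was -0.02 (SE 0.16, adjusted p = 0.934) with all mice and 0.11 without mouse 3 (adjusted p = 0.458). In treated marrow Samhd1 ranked 2 of the 9 genes per kilobase, at 88.6 ± 21.6 CPM per kb, after Rrm2 at 122 ± 43.5, and these ranges overlapped.

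In all, 5 of the 9 genes fell and 0 rose in marrow, and all 5 were beyond 1.5-fold. Of the 22363 genes tested in marrow, 33.1% passed, 16.3% higher and 16.8% lower, and 23.3% passed beyond 1.5-fold, 11.6% higher and 11.8% lower. The groups did not overlap for 4 of the 9, all lower, against 24.9% of tested genes without overlap, 11.4% higher and 13.5% lower. Tested against a change of 1.5-fold itself, Tk1 (adjusted p = 4.3e-04) and Dck (adjusted p = 0.00473) passed, and Rrm1, Rrm2 and Tyms did not (adjusted p = 0.333, 0.0894 and 0.123). The split of calls rests on the scaling: 49.6% of the called marrow genes were higher with TMM and 63.4% with library size alone, which moved the median of all genes from -0.04 to 0.11. The 5 falls passed under both, and DESeq2 gave the same 5 lower and 0 higher. At an unadjusted p under 0.05 the counts were also 5 and 0.

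In kidney Rrm2 and Rrm1 changed in the other direction. Rrm2 stood at 2.80, 3.01, 2.25, 2.66 and 2.88 CPM in vehicle kidney and at 7.25, 7.44, 5.97, 6.74 and 7.11 CPM in oxaliplatin kidney, from 52 to 79 reads and 166 to 237 reads per library. All treated mice lay above all controls. The mean rose from 2.72 ± 0.293 to 6.90 ± 0.582 CPM, or by 1.34 on the log2 scale (SE 0.14, adjusted p = 3.2e-06). Per kilobase Rrm2 had the lowest mean of the 3 subunits in kidney under both treatments, 1.24 and 3.15 CPM per kb, but per kilobase of all annotated exons it had the highest of the 3 with oxaliplatin (2.49, against 1.89 for Rrm2b and 1.42 for Rrm1).

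Rrm1 measured 11.5, 12.3, 8.86, 10.2 and 11.7 CPM in vehicle kidney and 14.3, 15.9, 14.0, 17.6 and 16.4 CPM in oxaliplatin kidney. The treated mice again lay above all controls, with a log2 fold change of 0.52 (SE 0.11, adjusted p = 0.00151). Rrm2b went the other way: 23.4, 20.6, 22.0, 21.0 and 21.9 CPM with vehicle and 16.5, 17.5, 18.7, 19.0 and 14.8 CPM with oxaliplatin. The groups did not overlap, and the log2 fold change was -0.33 (SE 0.085, adjusted p = 0.00696). This call was lost with library size alone (-0.20, adjusted p = 0.0762). Gm49085 averaged 0.924 CPM with vehicle and 0.933 CPM with oxaliplatin in kidney.

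The remaining 6 genes did not pass in kidney. Tyms measured 8.73, 8.65, 11.8, 11.4 and 8.79 CPM with vehicle and 12.2, 11.8, 11.6, 12.1 and 11.8 CPM with oxaliplatin. Control mouse 3 lay in the range of the treated mice and control mouse 4 just under it, and the log2 fold change was 0.27 (SE 0.11, adjusted p = 0.0750). The gene passed without control mouse 3 (0.34, adjusted p = 0.0364), without control mouse 4 (0.33, adjusted p = 0.0486) and with library size alone (0.40, adjusted p = 0.0131). Tk1 measured 12.7, 14.1, 14.1, 15.2 and 13.0 CPM with vehicle and 10.7, 13.0, 11.6, 13.2 and 17.6 CPM with oxaliplatin, a log2 fold change of -0.06 (SE 0.12, adjusted p = 0.721). Treated mouse 5 was the highest and treated mouse 1 the lowest of these 10. Afmid drew more reads than Tk1 in kidney and went from 40.4 ± 2.95 to 24.2 ± 3.19 CPM, and its part in the Tk1 value was not tested.

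Dck, at 2.61 to 3.28 CPM with vehicle and 2.44 to 3.69 CPM with oxaliplatin, was among the scarcest of the 9 in kidney (log2 fold change 0.06, adjusted p = 0.804). Dut ranged from 13.1 to 16.2 CPM with vehicle and from 10.5 to 15.6 CPM with oxaliplatin (-0.15, adjusted p = 0.302). Dctd rested on 17 to 56 reads per library, 0.648 to 1.54 CPM with vehicle and 0.647 to 1.96 CPM with oxaliplatin (0.08, SE 0.30, adjusted p = 0.869), so only a large change could have been detected. Samhd1 ranged from 20.8 to 26.0 CPM with vehicle and from 24.5 to 30.7 CPM with oxaliplatin (0.16, adjusted p = 0.159), and it passed with library size alone (0.29, adjusted p = 0.0159).

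Kidney thus gave 2 of 9 genes higher and 1 lower, of which 1, Rrm2, was beyond 1.5-fold. With library size alone 4 were higher and 0 lower, and 2 were beyond 1.5-fold, Rrm2 (1.47) and Rrm1 (0.65). Tested against a change of 1.5-fold itself, Rrm2 passed (adjusted p = 4.9e-04), and Rrm1 and Rrm2b did not (adjusted p = 1 for both). Of 19293 genes tested in kidney, 29.4% passed, 14.4% higher and 15.0% lower, and 11.5% passed beyond 1.5-fold, 7.68% higher and 3.81% lower, so the share of the 9 that passed was near the background. Of the genes called in kidney 66.8% were higher with TMM and 82.7% with library size alone, which moved the median of all genes from 0.02 to 0.16. Treated and control mice did not overlap for these 3 genes, against 20.7% of tested genes, 9.69% higher and 11.0% lower.

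**Figure D2:**
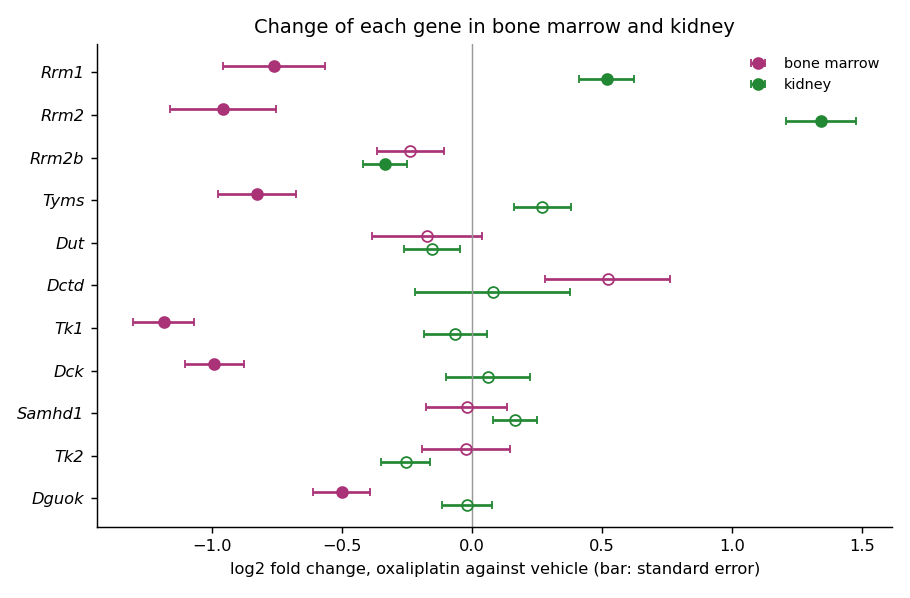
Log2 fold change of each gene after oxaliplatin, with its standard error, in bone marrow and kidney (5 mice a group); filled points passed an adjusted p under 0.05 and open points did not. Rrm2 lies at -0.96 in marrow and 1.34 in kidney, while both Rrm2b points lie left of 0.

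The 2 tissues were then compared directly, by testing whether the change in marrow differed from the change in kidney (interaction term of edgeR's test over all 20 libraries). The difference passed for 5 of the 9 genes, all with the marrow change below the kidney change, against 39.9% of 17507 genes that passed, 22.3% with the marrow change above and 17.6% with it below. It was -2.26 for Rrm2 (SE 0.26, adjusted p = 7.6e-07) and -1.24 for Rrm1 (SE 0.24, adjusted p = 3.4e-04) on the log2 scale. For Tk1 it was -1.09 (adjusted p = 5.5e-05), for Tyms -1.06 (adjusted p = 2.5e-04) and for Dck -1.02 (adjusted p = 8.2e-05). It did not pass for Rrm2b (0.13, adjusted p = 0.535), Dut (0.02, adjusted p = 0.961), Dctd (0.48, adjusted p = 0.355) or Samhd1 (-0.16, adjusted p = 0.507). Rrm2 and Rrm1 were the genes that passed in both tissues with opposite signs.

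Because each library holds both small subunits, their ratio could be read mouse by mouse. Per kilobase, the ratio of Rrm2 to Rrm2b was 48.2, 49.8, 69.5, 53.8 and 47.4 in vehicle marrow and 18.1, 28.1, 55.0, 41.9 and 24.0 in oxaliplatin marrow. Treated mice 1, 2, 4 and 5 lay below all controls and mouse 3 lay inside the vehicle range. In kidney the ratio was 0.248, 0.304, 0.212, 0.263 and 0.273 with vehicle and 0.915, 0.884, 0.663, 0.738 and 1.00 with oxaliplatin. Rrm2b was thus the more abundant in every vehicle kidney, whereas the ratio lay between 0.663 and 1.00 in oxaliplatin kidney. Which subunit led in oxaliplatin kidney rests on the length used: per kilobase of all annotated exons the means were 2.49 CPM for Rrm2 and 1.89 CPM for Rrm2b, while in vehicle kidney Rrm2b led on that scale too (2.39 against 0.981).

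**Figure D3:**
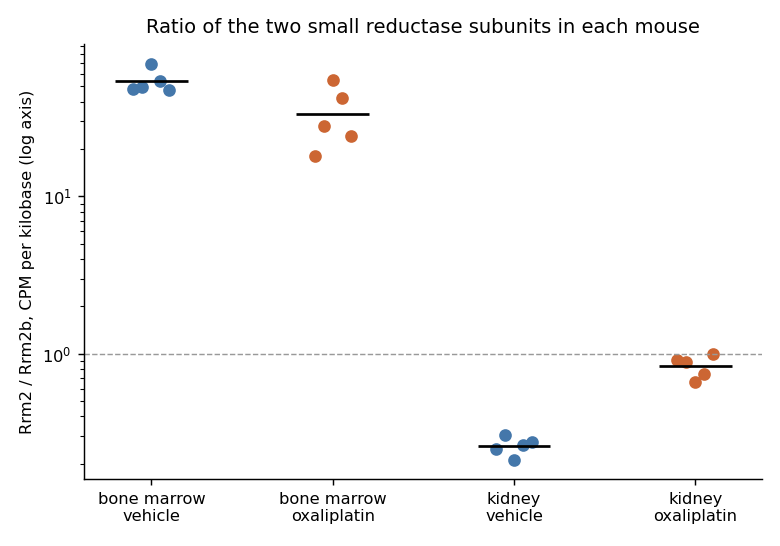
Ratio of Rrm2 to Rrm2b (CPM per kilobase of principal transcript, log axis) in each mouse, with group means as lines; the dashed line marks equal levels. Means are 53.7 and 33.4 in vehicle and oxaliplatin marrow and 0.260 and 0.840 in vehicle and oxaliplatin kidney.

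In all, 7 such differences within a library were tested in each tissue by a two-sided exact permutation test over the 252 divisions of 10 mice, whose smallest p is 0.00794, with adjustment over the 14 tests. In kidney log2 Rrm2 less log2 Rrm2b rose by 1.66 (exact p = 0.00794, adjusted p = 0.0139), and Rrm2 less Rrm1 by 0.80 (exact p = 0.00794, adjusted p = 0.0139). Rrm2b less Rrm1 changed by -0.86 there (exact p = 0.00794, adjusted p = 0.0139). In marrow Rrm2 less Rrm2b changed by -0.78 and missed the threshold once adjusted (exact p = 0.0476, adjusted p = 0.0606), but without mouse 3 it changed by -0.99 (exact permutation test, adjusted p = 0.0111). Rrm2 less Rrm1 changed by -0.20 in marrow with all 5 treated mice below all controls (exact p = 0.00794, adjusted p = 0.0139): the log2 difference of the 2 subunits went from 0.20 ± 0.060 to 0.0021 ± 0.047 (SD, n = 5). Rrm2b less Rrm1 in marrow changed by 0.58 (exact p = 0.0952, adjusted p = 0.111), and by 0.79 without mouse 3 (exact permutation test, adjusted p = 0.0185).

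The cytosolic salvage kinases have mitochondrial counterparts that act outside the cell cycle, Tk2 for thymidine and Dguok for purine deoxynucleosides. Tk2 averaged 39.9 ± 2.44 CPM with vehicle and 39.2 ± 11.0 CPM with oxaliplatin in marrow (log2 fold change -0.02, adjusted p = 0.931), and Tk1 less Tk2 changed by -1.12 (exact permutation test, adjusted p = 0.0139). Dguok fell in marrow from 25.9 ± 1.77 to 18.3 ± 2.46 CPM (-0.50, adjusted p = 0.00307). Dck less Dguok changed by -0.49 (exact p = 0.0476, adjusted p = 0.0606), and by -0.64 without mouse 3 (exact permutation test, adjusted p = 0.0111). In kidney neither kinase passed (Tk2 -0.25, adjusted p = 0.0504; Dguok -0.02, adjusted p = 0.891; 1 lower by DESeq2 and at an unadjusted p under 0.05), nor did Tk1 less Tk2 (0.17, exact permutation test, adjusted p = 0.402) or Dck less Dguok (0.07, exact permutation test, adjusted p = 0.667).

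S-phase genes, a list without the 9 genes, moved with Rrm2 in marrow. Of its 24 members 21 fell and 0 rose there, with a median log2 fold change of -0.82 against -0.04 for all genes, and without mouse 3 all 24 fell. At an unadjusted p under 0.05, 23 were lower and 0 higher, and DESeq2 gave 21 and 0. Among all genes tested in marrow 16.8% fell and 16.3% rose. Cdc6, which loads the replicative helicase, fell by 1.60 (adjusted p = 3.9e-04), and Ccne2, a cyclin of S-phase entry, by 1.13 (adjusted p = 4.8e-04). Pcna, the sliding clamp, fell by 0.88 (adjusted p = 0.00399), whereas Mcm3, a helicase subunit, had -0.46 (adjusted p = 0.0919). Rrm2, at -0.96, lay among the lower values of this list, with Cdc6, Ccne2, Uhrf1 and Fen1 below it. Rrm2 less the mean of the list changed by -0.16 (exact p = 0.0159, adjusted p = 0.0247), but by 0.05 when the median of the list stood in for its mean (exact permutation test, adjusted p = 0.667).

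Of the same 24 genes, 8 rose and 0 fell in kidney, with a median of 0.22 against 0.02 for all genes, of which 14.4% rose and 15.0% fell (29.4% in either direction, so the share of the list called was near the background); 11 were higher and 0 lower at an unadjusted p under 0.05, and DESeq2 gave 8 and 0. Uhrf1, which maintains DNA methylation at replication, rose from 2.52 ± 0.44 to 6.34 ± 1.13 CPM (log2 fold change 1.33, adjusted p = 2.4e-05), and Mcm3 from 3.71 to 7.17 CPM (0.95, adjusted p = 1.2e-04). Pcna (0.09, adjusted p = 0.413) and Slbp, the histone mRNA binding protein (0.00, adjusted p = 0.979), did not pass. Rrm2 less the mean of the list rose by 1.05 with all 5 treated kidneys above all controls (exact p = 0.00794, adjusted p = 0.0139).

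Mitosis genes followed the same signs. The shares over all genes were 16.8% lower in marrow and 14.4% higher in kidney. In marrow 10 of 12 fell and 0 rose (median -0.83; 11 lower at an unadjusted p under 0.05 and 12 without mouse 3), led by Mki67, the proliferation antigen, at 3156 ± 245 CPM with vehicle and 1096 ± 149 CPM with oxaliplatin. In kidney 8 of the 10 tested rose and 0 fell (median 1.08; 10 higher at an unadjusted p under 0.05 and 9 by DESeq2). There Top2a, the DNA topoisomerase of dividing cells, went from 1.73 ± 0.379 to 5.81 ± 1.28 CPM (1.74, adjusted p = 9.2e-06) and Mki67 from 3.22 ± 0.672 to 10.02 ± 2.92 CPM (1.63, adjusted p = 5.2e-05).

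Although Rrm2b is known as a p53-induced gene, it rose in neither tissue, whereas most p53 targets rose in both. Of 24 p53 targets, a list without Rrm2b, 16 rose and 2 fell in marrow (median 0.66), and 15 rose and 1 fell in kidney (median 0.62). The other 6 in marrow and 8 in kidney did not pass. The shares over all genes were 16.3% higher and 16.8% lower in marrow, and 14.4% higher and 15.0% lower in kidney. Cdkn1a, the cell cycle inhibitor p21, rose from 6.57 ± 0.405 to 136 ± 31.8 CPM in marrow (log2 fold change 4.37, adjusted p = 1.3e-08) and from 3.04 ± 1.15 to 115 ± 31.8 CPM in kidney (5.25, adjusted p = 7.2e-06). Ccng1, a cyclin induced by p53, rose by 1.53 in marrow (adjusted p = 7.8e-06) and by 1.21 in kidney (adjusted p = 3.5e-09). In marrow the targets that fell were Btg2 and Sesn1, both growth-restraining stress genes. In kidney the target that fell was Perp (-0.38, adjusted p = 0.00133), beside Rrm2b at -0.33. Rrm2b less the mean of the list changed by -1.27 in marrow (exact p = 0.00794, adjusted p = 0.0139) and by -1.40 in kidney (exact p = 0.00794, adjusted p = 0.0139), with all treated mice below all controls in each.

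**Figure D4:**
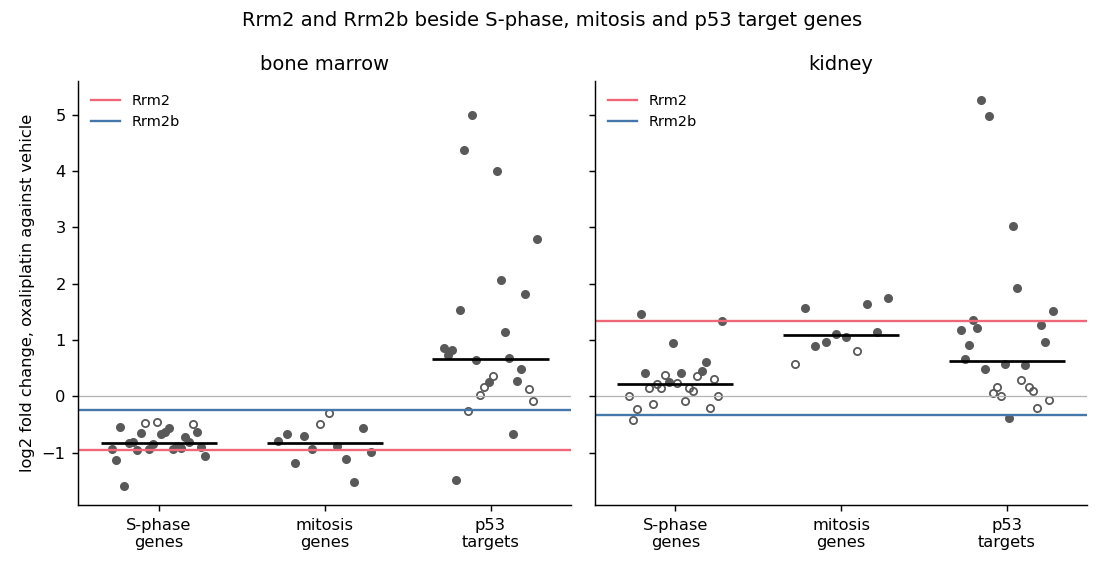
Log2 fold change of each tested gene of 3 lists (points; filled passed an adjusted p under 0.05, open did not; black bars are medians) in bone marrow and kidney, with Rrm2 and Rrm2b as horizontal lines. Rrm2 lies within the S-phase genes in marrow (-0.96, list median -0.82) and above most of them in kidney (1.34, list median 0.22), and Rrm2b lies below the p53 target median in both.

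The genes most like Rrm2 over all 20 libraries, by the root mean square difference of log2 CPM taken relative to the vehicle mean of each tissue, were Uhrf1 (0.185), Ncaph (0.248), Cenpa (0.258), Tpx2 (0.269) and Cercam (0.271), among 17506 genes with a median of 0.945. Ncaph is a condensin subunit, Cenpa the centromeric histone H3 variant and Tpx2 a spindle assembly factor. These 5 had log2 fold changes of -1.06 to -0.79 in marrow and 1.27 to 1.51 in kidney. For Rrm2b the 5 nearest included Cggbp1 (0.120), Tor1aip1 (0.121), Rab8a (0.123) and Rp2 (0.123), where the median over the 17506 genes was 0.454. These genes had small changes of -0.21 to -0.12 in marrow and -0.34 to -0.25 in kidney. The libraries of a tissue share their scaling and their group differences, so these are descriptions only.

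Other genes of the pathway moved in both directions in marrow. Of 7 nucleotide kinases, which turn mono- and diphosphates into triphosphates, 4 rose and 1 fell there (median 0.30): Cmpk1, the cytosolic UMP-CMP kinase, rose by 0.30 (adjusted p = 0.0352). The kinase that fell was Cmpk2, a mitochondrial UMP-CMP kinase, from 83.9 ± 12.3 to 28.5 ± 6.54 CPM (-1.56, adjusted p = 9.2e-06). Without mouse 3 the count was 2 higher and 2 lower. The shares over all genes were 16.3% higher and 16.8% lower in marrow, and 14.4% higher and 15.0% lower in kidney. In kidney 0 rose and 4 fell (median -0.25), with Cmpk1 at -0.25 (adjusted p = 0.00502) and Nme1, a nucleoside diphosphate kinase, at -0.53 (adjusted p = 0.00122).

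Cmpk2 is an interferon-stimulated gene that neighbours Rsad2. Of 15 interferon-stimulated genes 7 fell and 0 rose in marrow (median -0.72), and Rsad2, an antiviral enzyme, went from 287 ± 42.8 to 17.1 ± 2.61 CPM (-4.07, adjusted p = 7.1e-09). Samhd1, itself interferon-inducible, was at -0.02 in the same libraries. In kidney 2 of the 15 rose and 0 fell. Among all genes tested, 16.3% rose and 16.8% fell in marrow, and 14.4% rose and 15.0% fell in kidney. The share of this list that rose in kidney was thus near the background.

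The folate cycle hands Tyms its carbon unit. In marrow 1 of 5 of its genes rose, Shmt2 (0.59, adjusted p = 0.0200), and 0 fell. The counts were 3 higher and 0 lower at an unadjusted p under 0.05, 2 and 0 by DESeq2, and 1 and 1 without mouse 3. Among all genes tested, 16.3% rose and 16.8% fell in marrow, and 14.4% rose and 15.0% fell in kidney. The share of the 5 genes that rose in marrow was thus near the background. In kidney 2 rose and 2 fell: Shmt2, the mitochondrial serine hydroxymethyltransferase, fell from 359.96 ± 16.3 to 267 ± 37.1 CPM (-0.43, adjusted p = 0.00114), and its cytosolic counterpart Shmt1 rose (0.38, adjusted p = 0.00199). The 5 genes of pyrimidine base synthesis had adjusted p of 0.0665 to 0.628 in marrow (median 0.32; 2 higher and 1 lower at an unadjusted p under 0.05, 1 higher by DESeq2), and in kidney Cad, which catalyses the first steps, rose (0.38, adjusted p = 9.4e-04) and Ctps, the CTP synthase, fell (-0.40, adjusted p = 0.00146). The 4 pool-cleaning pyrophosphatases had adjusted p of 0.0622 to 0.447 in marrow (1 higher at an unadjusted p under 0.05 and by DESeq2), and 1 of them, Itpa, which hydrolyses deaminated purine nucleotides, fell in kidney (-0.28, adjusted p = 0.0303; 2 lower by DESeq2 and at an unadjusted p under 0.05).

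Nucleoside breakdown and uptake gave 5 higher and 2 lower of 10 genes in marrow, where 16.3% of all genes were higher and 16.8% lower, and 2 higher and 4 lower in kidney, where 14.4% were higher and 15.0% lower. Cda, which deaminates the deoxycytidine that Dck phosphorylates, averaged 0.201 ± 0.193 CPM in vehicle marrow and 5.98 ± 2.12 CPM in oxaliplatin marrow. It is 1 of the 5 higher, but only the treated mice carried it through the read filter, so it could only come out higher. In kidney, where Cda is abundant, it fell from 246 ± 17.3 to 177 ± 28.9 CPM (-0.47, adjusted p = 0.00159). Pnp, the purine nucleoside phosphorylase, fell in both tissues (-0.81 in marrow, adjusted p = 0.00120; -0.66 in kidney, adjusted p = 1.2e-04). Of 4 electron donors of the reductase, 1 rose in marrow, the thioredoxin reductase Txnrd1 (0.46, adjusted p = 0.0300), and 1 fell in kidney, the thioredoxin Txn1 (-0.54, adjusted p = 6.9e-04; 2 lower by DESeq2 and at an unadjusted p under 0.05).

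Markers of marrow cell types moved as well, and in bulk marrow fewer cells of a type and less RNA per cell cannot be told apart. Among all genes tested in marrow 33.1% passed, 16.3% higher and 16.8% lower. Late erythroid markers fell in 18 of 18 (median -2.63), with their most abundant gene Hba-a1, an alpha globin whose reads may be split with the near-identical Hba-a2, going from 13464 to 2159 CPM. Early erythroid markers, of cells that divide rapidly, gave 14 lower and 1 higher of 16 (median -1.10). Their sum went from 6105 ± 708 to 2403 ± 807 CPM, with Car2 their most abundant gene. The 1 higher was Mt2, at 0.0989 CPM with vehicle and 0.924 CPM with oxaliplatin, kept by the read filter through the treated mice only. B lineage markers gave 11 lower of 14 (median -2.23), and their sum went from 682 ± 148 to 175 ± 45.8 CPM, with Ebf1 the most abundant. Of the T cell markers 2 of 8 were lower (Cd4 and Lck), with a list median of 0.19, while their sum went from 112 ± 16.3 to 63.7 ± 9.99 CPM without overlap, Cd4 being the most abundant.

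Most macrophage markers and every adipocyte marker passed as higher. Of the adipocyte markers, Lep averaged 0.041 CPM with vehicle and 12.1 CPM with oxaliplatin. Only the treated mice carried Lep through the read filter, so it could only come out higher. The macrophage sum of treated mouse 3 (1791 CPM) lay inside the vehicle range (1462 to 1986 CPM). Macrophage markers gave 8 higher and 1 lower of 12 (median 0.65; sum 1663 ± 196 and 2981 ± 823 CPM; most abundant Vcam1), and adipocyte markers 8 higher of 8 (sum 225 ± 43.2 and 2517 ± 1115 CPM; most abundant Lpl). Neutrophil lineage markers gave 1 higher of 13 (Ctsg), with sums of 24406 ± 1748 and 21435 ± 8643 CPM and Ngp the most abundant, and treated mice 3 and 4 lay below all controls and mouse 5 above them. Without mouse 3 the counts became 15 lower of 16 early erythroid markers, 9 higher of 12 macrophage markers, 1 higher and 1 lower of 13 neutrophil lineage markers, and 1 higher and 1 lower of 8 T cell markers. No gene of these lists was at 0 in marrow. The part of any of these cell types in the values of the 9 genes was not tested.

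**Figure D5:**
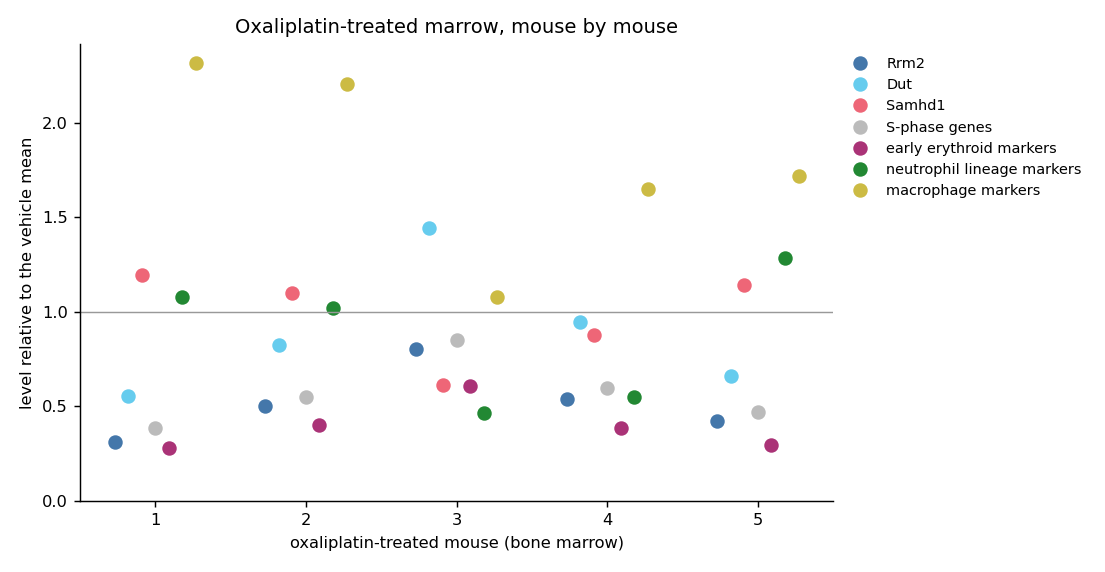
Level of Rrm2, Dut, Samhd1 and summed marker lists in each of the 5 oxaliplatin-treated marrows, divided by the vehicle mean (grey line at 1). In mouse 3 Rrm2 (418 CPM), Dut (142 CPM), S-phase genes (3408 CPM) and early erythroid markers (3721 CPM) are at their highest and Samhd1 (217 CPM), macrophage markers (1791 CPM) and neutrophil lineage markers (11394 CPM) at their lowest.

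Across the 5 treated marrows, Rrm2, Rrm1, Tyms, Dut, Dctd, Tk1 and Dck were highest in mouse 3, where S-phase and early erythroid sums were highest too, and the same 7 genes were lowest in mouse 1, where both sums were lowest. Samhd1 had the reverse order at the ends, highest in mouse 1 (421 CPM) and lowest in mouse 3 (217 CPM), as did the macrophage sum (3848 and 1791 CPM). With 5 mice no correlation was computed.

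In kidney the markers of blood cells were also read, but whether these reads came from blood cells was not tested. Of the early erythroid sum given below, Car2 held 346 ± 15.1 CPM with vehicle and 432 ± 34.6 CPM with oxaliplatin. Neutrophil lineage markers summed to 2.34 ± 0.338 CPM with vehicle and 8.53 ± 3.35 CPM with oxaliplatin, most of it Lcn2, which injured tubules also make, and Ctsg was at 0 in all kidney libraries. B lineage markers summed to 31.4 and 38.0 CPM, with Rag1 at 0 and Blnk the most abundant (20.9 and 24.4 CPM). Of the 4 tested, 1 rose, Ebf1 (6.80 to 11.4 CPM), and 0 fell. Cd79b was lower without passing (0.832 to 0.577 CPM, adjusted p = 0.180). T cell markers gave 1 lower of 6 tested. Macrophage markers fell in 5 and rose in 2 of 11 tested, their sum going from 156 ± 12.3 to 109 ± 6.07 CPM (most abundant Csf1r). Late erythroid markers gave 3 higher and 1 lower of 15 tested (sum 921 ± 77.6 and 883 ± 354 CPM; most abundant Fech, with Hba-a1 at 129.6 ± 27.1 and 125 ± 121 CPM), early erythroid markers 3 higher of 11 (sum 486 ± 14.3 and 572 ± 29.9 CPM; most abundant Car2), and adipocyte markers 5 higher and 1 lower of 7, the sum going from 414 ± 94.8 to 303 ± 62.3 CPM and their most abundant gene Lpl falling from 383 to 185 CPM. Among 10 tubule and podocyte markers 3 rose and 2 fell, and their sum went from 27926 ± 1763 to 21207 ± 2865 CPM, with Slc34a1 the most abundant; the androgen-dependent tubule gene Kap went from 8268 ± 768 to 2219.8 ± 1512 CPM (adjusted p = 0.0437). Among all genes tested in kidney 29.4% passed, 14.4% higher and 15.0% lower. The shares of late and early erythroid markers called in either direction were near that background. The part of these cell types in the kidney values of Rrm1, Rrm2 and Rrm2b was not tested.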

How the data were processed

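For each tissue the authors deposited 1 file of counts, unnormalized reads per gene. Per the study's methods, reads were aligned with STAR to Ensembl release 101 genes, and uniquely aligned, unambiguous reads were counted in Partek Flow. The labels describe ribosomal RNA removal with random priming and the methods SMARTer cDNA, and which applies is not settled here.

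From these counts, genes were kept by filterByExpr (minimum count 10), TMM-scaled and tested per tissue by edgeR's quasi-likelihood F test (R 4.3.3, edgeR 4.0.16; robust, two-sided, treatment as the only term) with Benjamini-Hochberg adjustment. Tissues were compared by a tissue by treatment term. Log2 CPM used a prior count of 2. Lengths and positions are from GENCODE vM21 (GRCm38; 55227 of 55486 genes). A line lacking a value was left out of each file. Libraries of a group differed by more than sampling noise (lowest chi-square per degree of freedom 7.51). Alternatives were DESeq2 1.42.0, other scalings, filters and thresholds, a replicate block, a Y-linked covariate, leaving out globin genes and leaving out each library. The test script was tested on simulated data.

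The members and the lists were chosen with earlier results of these data known. The text names all members, any gene of the fixed lists, and the 5 genes nearest to Rrm2 and to Rrm2b, except some that are not reported here. List counts without oxaliplatin marrow mouse 3 and levels per length of all exons were added after seeing the data.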

Additional observations from a re-analysis of the deposited data

Results flagged for a closer look

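For 5 genes the change after oxaliplatin differed between the tissues by the interaction term of edgeR's quasi-likelihood test (adjusted p under 0.05 over 17507 genes, 39.9% of which passed). The change in marrow less that in kidney was -2.26 for Rrm2, -1.24 for Rrm1, -1.09 for Tk1, -1.06 for Tyms and -1.02 for Dck on the log2 scale. Of these, Rrm2 and Rrm1 passed in each tissue alone with opposite signs, and Tyms, Tk1 and Dck passed in marrow alone of the 2 tissues. Whether the marrow and kidney libraries of the same number came from the same mouse is not given in the labels, so the 20 libraries were treated as separate mice. No library was an outlier within its group of 5 for any of the 9 genes in either tissue, by Dixon's 95% critical value of 0.71 for 5 samples (36 groups tested, of which chance flags about 1 in 20).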

How the results depend on the processing

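The number of called genes moved most with the threshold. In marrow 5221 became 2730 when tested against 1.5-fold, 3231 beyond 2-fold and 7413 with adjusted p alone. In kidney 2216 became 454, 941 and 5679 under the same settings. Leaving out 1 library at a time, marrow Rrm2 less Rrm2b ranged from -0.99 to -0.59, Rrm2b less Rrm1 from 0.41 to 0.79 and Dck less Dguok from -0.64 to -0.36, each passing only without oxaliplatin mouse 3. Marrow Rrm2 less the S-phase genes turned to 0.051 with the list's median in place of its mean; the cause was not tested.

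Changes that did not pass with all libraries turned sign as follows. Marrow Samhd1 became 0.0127 with DESeq2 and with its size factors, 0.12 with library size alone and 0.0032 without globin genes, and ran from -0.098 to 0.11 with 1 library left out. Marrow Dut became 0.0067 with the Y-linked covariate. Kidney Tk1 became 0.071 with library size alone and ran from -0.18 to 0.011 with 1 library left out, as did kidney Dctd from -0.11 to 0.25 and kidney Dck from -0.012 to 0.13. The tissue difference of Dut became -0.052 with the replicate block and ran from -0.24 to 0.15.

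Mice share numbers across groups, but same-numbered mice did not deviate together (correlations of -0.148 to 0.259 between treatments in marrow, -0.157 to 0.0827 in kidney). Between marrow and kidney the correlations were -0.0938 to 0.0479 with vehicle and -0.0823 to 0.206 with oxaliplatin. In each check 1 of 5 correlated best with its own number. Such values cannot show whether the same number in 2 tissues means the same mouse. With the replicate block, 4968 genes were called in marrow, 2017 in kidney and 6666 for the tissue difference (6987 without it), and no call among the 9 genes changed. The differences within a library keep their values under the block (-0.78 for marrow Rrm2 less Rrm2b, 1.66 for kidney), where 5 pairs cannot pass the threshold. Of single-gene values under other settings, 577 kept direction and side of the threshold, against 35 that did not. The 577 include the settings beyond 2-fold and adjusted p alone, which leave a gene's own values as they were. Of main results 255 were judged unchanged and 9 changed. That tally mixes differences within a library with counts of called genes, which have no direction. The 255 include the 14 differences within a library under the block, which repeat the main values and could not change. Kidney Dctd (17 to 56 reads) and Dck (68 to 123 reads) rest on few reads per library.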

Other observations

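The study's methods name mice of both sexes, while in these 20 libraries Xist, the RNA that marks the silenced X chromosome of females, reached at most 2.88 CPM, its highest marrow level, and at most 0.57 CPM in kidney. Y-linked genes summed to 6.3 to 7.44 on the log2 CPM scale in every library. Adding their level as a covariate changed no call among the 9 genes. With Y-linked reads in all 20 libraries, that check could not compare the sexes.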
